A study of Saccharomyces cerevisiae with 2 samples.

Results

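The RNA levels of 7 budding yeast genes that build and break down soluble inositol phosphates were compared between wild-type cells and cells labelled as lacking YDR374C. The genes are PLC1, ARG82, IPK1, KCS1, VIP1 (YLR410W), DDP1 and SIW14, and they were taken by name from the gene spots of the arrays. All 7 were found among the 6256 genes on the array, with 1 probe each. IPK1 and DDP1 each have 2 spots per array and the other 5 genes have 1 spot. Both strains are haploid Saccharomyces cerevisiae BY4741 and share that background's auxotrophic deletions. YDR374C encodes Pho92, a reader of methylated RNA with a YTH domain. Cultures grew in SD medium, a defined glucose medium, until mid-exponential phase at an OD600 of 0.7. The strains were hybridised together on each of 2 arrays, with wild type in the Cy3 (green) channel and the labelled deletion in the Cy5 (red) channel. The sources used here do not say how the deletion was made, or that the arrays hold RNA of separate cultures. The limma p-values below thus reflect array-to-array spread, largely pooled over all tested genes, and that spread may be technical. The scanner software's p-values are given for each spot within its own array.

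Inositol phosphates are made from a membrane lipid and then phosphorylated step by step. Plc1 releases inositol trisphosphate from phosphatidylinositol bisphosphate, Arg82 and Ipk1 add phosphates until inositol hexakisphosphate is reached, and Kcs1 and Vip1 place a further phosphate on an existing one to give inositol pyrophosphates. Ddp1 and Siw14 remove those pyrophosphate groups again. Inositol pyrophosphates bind SPX domains, which occur in proteins of phosphate transport, polyphosphate synthesis and the PHO pathway, and they report the phosphate supply of the cell to these proteins.

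The array data covered the 7 genes well. The median gene spot had a mean signal between 1597 and 3105 in the 4 combinations of array and channel. Local backgrounds lay between 36 and 42. Mean signals of the 7 genes ran from 1145 to 10408, with red above green in all 18 spot readings. The spot signals given below are processed ones, and the order of the channels holds for these only. After the scanner software's dye normalisation, the 18 readings lay at processed signals from 672 to 4095 in green and from 733 to 4340 in red. Every one of them was well above background in both channels, and none was saturated. The PLC1 spot on array 1 was marked as an outlier by the scanner software, so PLC1 was left without a test. PHO92 (YDR374C), the gene named as deleted, kept a signal in the red channel. On both arrays 1 of its 2 spots failed the well-above-background mark in both channels, and the other read 271 in green and 223 in red on array 1 and 247 and 238 on array 2. Its log2 ratio of deletion over wild type was -0.23 ± 0.03 (SE, n = 2), averaged over both spots. The spot above background gave -0.24 on array 1 and -0.04 on array 2, and the failed spot gave -0.24 and -0.39. Of the genes that BY4741 lacks, LEU2 and MET17 were not well above background. URA3 was, and its ratio of 0.33 ± 0.04 (SE, n = 2), or 0.50 with the scanner software's ratios, is further from 0 than the mean ratio of any of the 6 tested members. Its 2 spots were much dimmer than those of the members, at processed signals from 86 to 235. They gave 0.42 and 0.11 on array 1 and 0.54 and 0.25 on array 2. Directions below rest on the dye labels, and since the dyes were not swapped, a fixed dye effect of a probe cannot be told apart from a strain difference.

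All 7 genes differed little between the RNAs. Of the 6 tested genes, the phosphatase genes DDP1 and SIW14 were higher and the kinase genes VIP1 and ARG82 lower in the RNA labelled as deletion (limma, Benjamini-Hochberg adjusted p threshold of 0.05 over 5641 genes). The kinase genes KCS1 and IPK1 missed the threshold narrowly. Over all tested genes, 73.1% passed the same test, 36.4% higher and 36.7% lower, so 4 calls among 6 genes are close to the share of the whole array. The absolute log2 ratios of the 6 genes ran from 0.08 to 0.15, below the median of 0.17 for all tested genes. Their median log2 ratio was -0.08, beside -0.00 over all tested genes.

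PLC1, the phospholipase that starts the pathway, is known from a single accepted value. On array 2 its spot read 672 in green and 819 in red, and its log2 ratio was 0.26. On array 1 the spot that was marked as an outlier read 1055 in green and 1122 in red, with a log2 ratio of 0.08. Both values lay above 0, but the second of them is not accepted by the scanner software, and the values are further apart than those of any tested member. With outlier spots kept, PLC1 was higher by 0.17 ± 0.04 (SE, n = 2; limma adjusted p = 0.0022), at a setting where 74% of 6146 genes passed.

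ARG82, the inositol polyphosphate multikinase, which also takes part in the control of arginine genes, had signals of 808 in green and 733 in red on array 1 and 830 and 796 on array 2. Its log2 ratios were -0.13 and -0.06. The processed red signal was the lower one on both arrays, by an amount that was larger on array 1. In mean signals, before dye normalisation, red was above green (1358 over 1145 on array 1, 1987 over 1626 on array 2). The mean of -0.10 ± 0.04 (SE, n = 2) passed limma's test with adjusted p = 0.0257, a 0.936-fold level with a 95% interval from 0.888 to 0.987. With array 1 left out the value was -0.06, and the call was lost when ratios came from the scanner software (adjusted p = 0.0628) or from the authors' series table (adjusted p = 0.0761).

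IPK1, which adds the last phosphate of inositol hexakisphosphate, was measured in 2 spots per array. On array 1 they read 1178 and 1159 in green and 1089 and 1008 in red, with log2 ratios of -0.10 and -0.19. On array 2 they read 1200 and 1054 in green and 1194 and 1029 in red, with log2 ratios of -0.01 and -0.04. All 4 spot ratios were below 0, but those of array 2 were close to it, so the arrays differ more than the spots within one. The mean was -0.08 ± 0.04 (SE, n = 2) and did not pass (limma adjusted p = 0.0635), with a 95% interval of the fold from 0.893 to 0.999. It was -0.14 on array 1 alone and -0.02 on array 2 alone, and with the first spot of the probe alone it was -0.05 (adjusted p = 0.267). It passed after median centring in place of loess (-0.12, adjusted p = 0.0155).

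KCS1, the kinase that makes the main inositol pyrophosphate of yeast, read 3495 in green and 3215 in red on array 1. On array 2 it read 3537 and 3394. The log2 ratios were -0.11 and -0.05, both slightly below 0. Their mean of -0.08 ± 0.04 (SE, n = 2) did not pass (limma adjusted p = 0.0512), and the 95% interval of the fold ran from 0.897 to 0.996. After median centring the sign turned (0.02, adjusted p = 0.652), so these arrays give KCS1 no settled direction. Pho4 is known to drive antisense and intragenic transcripts at KCS1 when phosphate is scarce, and whether the KCS1 probe reads any of them was not tested.

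VIP1, whose protein holds both a pyrophosphate-forming kinase domain and a phosphatase domain, read 1595 in green and 1505 in red on array 1. The array 2 signals were 1976 and 1689. Its log2 ratios were -0.07 and -0.20, so the fall on array 2 was far larger than that on array 1. The SD between the arrays was 0.0930, beside a median of 0.0342 over all tested genes. Its mean of -0.14 ± 0.04 (SE, n = 2) was the lowest of the 6 tested genes and passed limma's test (adjusted p = 0.0054), a 0.910-fold level with a 95% interval from 0.859 to 0.964. VIP1 passed under all of the 11 processing alternatives that give a test, but those that change only which spots or probes are kept left its value unchanged. Array 1 alone gives -0.07.

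DDP1, a Nudix hydrolase that cleaves inositol pyrophosphates, diadenosine polyphosphates and polyphosphate, was the most evenly measured gene of the 7. Its first spot read 1657 in green and 1873 in red on array 1 and 1519 and 1707 on array 2, with a log2 ratio of 0.18 on both arrays. Its second spot read 3238 and 3508 on array 1, then 2222 and 2390 on array 2, with a log2 ratio of 0.12 on both. The spots hold the same probe and differ more in signal than in ratio. The processed red signal was above the green one in all 4 spot readings. The mean was 0.15 ± 0.03 (SE, n = 2; limma adjusted p = 0.0013), a 1.11-fold level with a 95% interval from 1.05 to 1.17. DDP1 had the largest absolute log2 ratio of the 6 tested genes, larger than that of 44.7% of all tested genes.

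SIW14, an atypical dual specificity phosphatase that acts on inositol pyrophosphates, read 3028 in green and 3364 in red on array 1. On array 2 it read 4095 and 4340. The log2 ratios were 0.16 and 0.09, above 0 on both arrays. The mean of 0.12 ± 0.04 (SE, n = 2) passed limma's test (adjusted p = 0.0067), a 1.09-fold level with a 95% interval from 1.03 to 1.15. After median centring it was 0.23 (adjusted p = 1.18e-04).

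**Figure D1:**
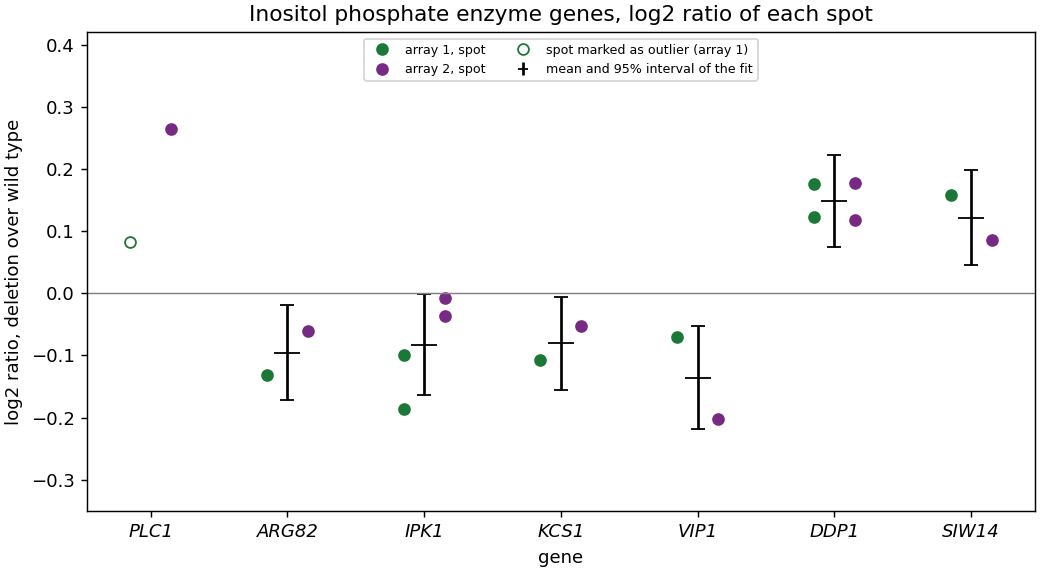
Log2 ratio of deletion over wild type (y axis) for each spot of the 7 genes (x axis), by array, with the mean and its 95% interval from the limma fit for the 6 tested genes. The kinase genes ARG82, IPK1, KCS1 and VIP1 lie below 0 and DDP1 and SIW14 above it, although KCS1 turned to 0.02 after median centring. The open PLC1 point is the spot marked as an outlier.

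**Figure D2:**
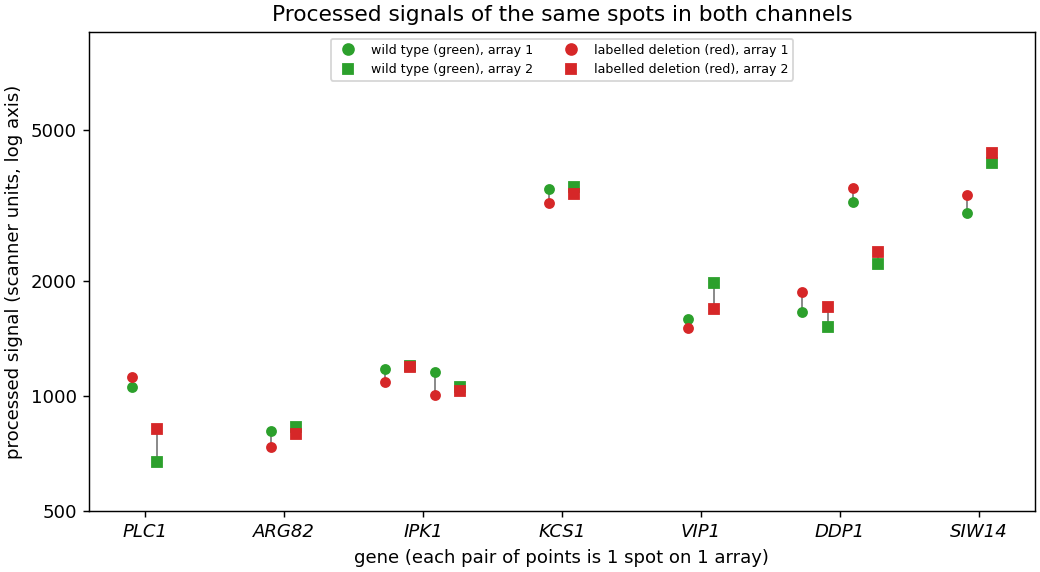
Processed signal of every spot in scanner units (log axis) for each of the 7 genes (x axis), with the wild-type channel in green joined to the labelled deletion channel in red. Red lies below green in every pair of ARG82, IPK1, KCS1 and VIP1 and above it in every pair of PLC1, DDP1 and SIW14. These signals are dye-normalised, and in mean signals red was above green in every pair of all 7 genes. KCS1 turned to 0.02 after median centring, and signals of different probes are not comparable as RNA levels.

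Ordered by log2 ratio, the tested genes ran from VIP1 through ARG82, IPK1 and KCS1 to SIW14 and DDP1. Neighbours in this order overlapped in their array values at every step except that from KCS1 to SIW14. VIP1 and ARG82 were 0.04 apart, with a combined SE of 0.05, and ARG82, IPK1 and KCS1 were closer still. SIW14 and DDP1 were 0.03 apart, also with a combined SE of 0.05. SIW14 exceeded KCS1 by 0.20 with a combined SE of 0.05, by 0.27 on array 1 and by 0.14 on array 2. The 8 array values of the 4 kinase genes lay between -0.20 and -0.02, and the 4 values of DDP1 and SIW14 between 0.09 and 0.16. The kinase values all lay below the phosphatase values and below 0, except that KCS1 moved to 0.02 after median centring. This split of 6 genes over 2 arrays was not tested.

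**Figure D3:**
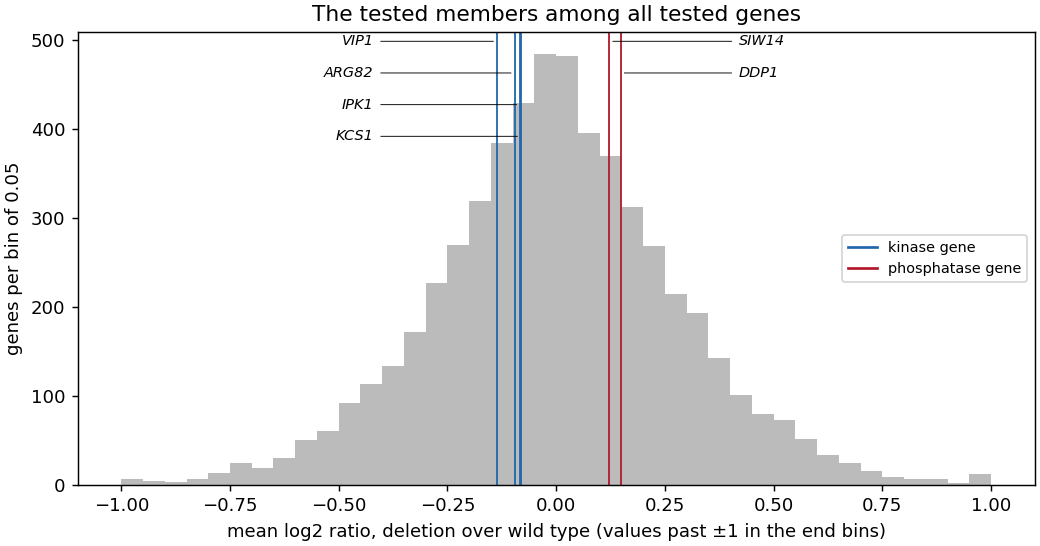
Number of genes (y axis) by mean log2 ratio of deletion over wild type (x axis) for the 5641 tested genes, with the 4 tested kinase genes in blue and the 2 phosphatase genes in red. All 6 lines stand in the central bulk of the distribution, between -0.14 and 0.15, and KCS1 crosses 0 after median centring.

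Stricter rules called none of these genes. Tested against a 1.5-fold change with limma's treat, 0 of the 6 genes passed, also at an unadjusted p under 0.05, beside 1.45% of all tested genes. The scanner software's own p-values for the member spots ran from 0.17 to 0.97. By that rule, which asks for p under 0.01 on both arrays, 5.07% of all tested genes and 0 of these 6 were called, and 0 of the 7 had any spot with p under 0.05. Against a ratio of 0, limma gave an unadjusted p under 0.05 to all 6, beside 74.5% of all tested genes.

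**Figure D4:**
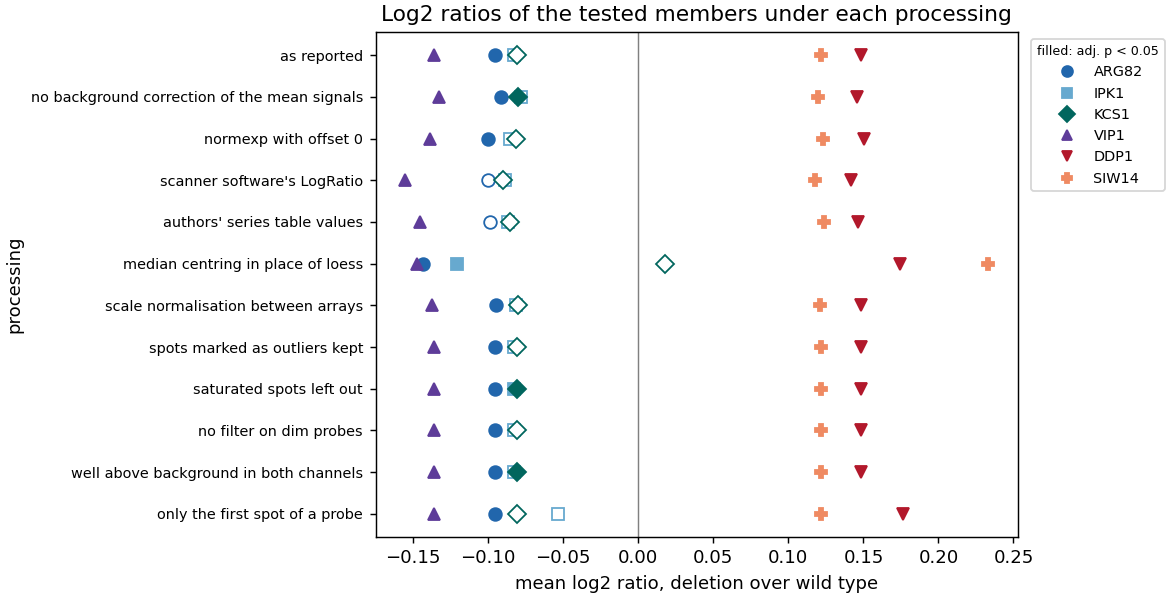
Mean log2 ratio of deletion over wild type (x axis) of the 6 tested genes under each processing (y axis), filled where the limma adjusted p was under 0.05. Median centring moved KCS1 to 0.02 and SIW14 to 0.23, and VIP1, DDP1 and SIW14 are filled in every line. Lines that change only which spots or probes are kept leave the values of VIP1 and SIW14 in place.

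The genes whose array values came closest to those of DDP1 were LDB17, MCH5 and GWT1. Their distances from DDP1 over the 2 arrays were 0.0034, 0.0059 and 0.0074 on the log2 scale, among 1087 tested genes of like intensity. Distance over 2 arrays is a coarse measure, and many genes lie near this value. KCS1, ARG82 and IPK1 carry systematic names that begin with YDR, as YDR374C does, which places these 3 on the right arm of chromosome IV. The genes beside the 7 members were looked at after their values were seen. Of 13 tested ones, 2 were higher, 6 lower and 5 did not pass. SUP35, a translation termination factor gene beside ARG82, was lower by limma's test (-0.34 ± 0.03, SE, n = 2), and so was KAR9, a spindle orientation gene beside PLC1 (-0.57 ± 0.03). Those calls are 61.5% of the 13, beside 73.1% of all tested genes, and the median absolute log2 ratio was 0.09.

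Some genes on lists related to the 7 enzymes differed more than the enzymes did. The lists hold many more genes than the pathway, so their extremes alone do not set them apart from it. The 11 lists of related genes held 88 different genes, of which 80 were tested, 33 higher and 22 lower. That is 68.8% called, beside the 73.1% of all tested genes, and the other 8 were left out because of outlier spots. With those spots kept, all 8 passed limma's test, at a setting where 74% of 6146 genes passed. ARG80, ITR2, OCA1 and SFK1 were then higher and ARP8 (-0.09), CAR2 (-0.13), GDE1 (-0.25) and INO80 lower, and all 8 are named after their values were seen. The median absolute log2 ratio of the 80 genes was 0.15, beside 0.17 for all tested genes and 0.11 for the tested members.

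Of 9 tested genes for the synthesis and uptake of inositol, its use in phosphatidylinositol synthesis and their regulators, 6 were higher and 1 lower, with a median log2 ratio of 0.14 beside -0.00 over all genes. The share called was 77.8%, beside 73.1% of all tested genes. The 6 were INM1, INO1, PIS1, the transporter gene ITR1, the repressor gene OPI1 and the activator gene INO4. INM1, an inositol monophosphatase that releases free inositol, was higher by 0.50 on array 1 and 0.41 on array 2 (mean 0.45 ± 0.04, SE, n = 2; limma adjusted p = 4.63e-08). PIS1, the phosphatidylinositol synthase, was higher by 0.21 ± 0.03, and by 0.35 after median centring. CDS1, which makes the lipid precursor of that reaction, was lower (-0.26 ± 0.03). INO1, the inositol phosphate synthase, named after its value was seen, had 0.15 ± 0.03, and 0.10 after median centring, and passed in both. ITR2, an inositol transporter gene, was left out for outlier spots, and had 0.52 (limma adjusted p = 5.49e-08) with them kept.

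Of the lipid phosphoinositide lists, 3 of 12 tested kinase genes and their partners were higher and 2 lower (median -0.01). Of 7 phosphatase genes 2 were higher and 4 lower (median -0.08). The count of 4 was 2 with the series table and with the first spot of each probe alone. As reported, the shares called were 41.7% and 85.7%, beside 73.1% of all tested genes. Fab1 makes phosphatidylinositol bisphosphate of the vacuole, with Vac7 as its activator and Vac14 as the scaffold that also holds the phosphatase Fig4. These 4 genes come from both lists and were set side by side after their values were seen. VAC14 was lower, with log2 ratios of -0.72 and -0.74 on the arrays (mean -0.73 ± 0.03, SE, n = 2; limma adjusted p = 3.16e-10), a 0.602-fold level. FIG4 was also lower, with -0.60 and -0.59 (mean -0.60 ± 0.03, limma adjusted p = 1.69e-09). FAB1 (0.26 ± 0.03) and VAC7 (0.28 ± 0.04) were higher. INP51, which acts on the bisphosphate that Plc1 cleaves, was higher by 0.25 ± 0.04, and the phosphatase gene YMR1 was lower (-0.25 ± 0.04). SFK1, left out for outlier spots, had 0.62 (limma adjusted p = 2.31e-08) with them kept.

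Of 6 genes of glucose sensing, listed for its tie to Plc1, 4 were higher and 1 lower, with a median of 0.16. That is 83.3% called, beside 73.1% of all tested genes. The receptor gene GPR1 was higher by 0.21 ± 0.04 (SE, n = 2) and the kelch protein gene GPB2 by 0.34 ± 0.04. ASC1, a ribosomal protein that binds the G protein Gpa2, was lower (-0.65 ± 0.04, and -0.37 after median centring), but its spots were saturated in both channels on both arrays, apart from 1 of the 2 green readings on array 2. GPA2 itself, named after its value was seen, had 0.13 ± 0.04 and was called higher, with 0.07 on array 1 alone. Without saturated spots 0 of these genes were lower, since ASC1 was then not tested.

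The relatives of Siw14 and Ddp1 were examined next. Of 4 tested OCA genes, most of which encode atypical phosphatases of the Siw14 kind, 2 were higher, OCA2 by 0.28 ± 0.03 (SE, n = 2) and OCA4 by 0.20 ± 0.03 (limma adjusted p = 3.91e-06 and 9.53e-05). OCA2 had 0.43 after median centring. OCA6 had 0.03 ± 0.03 and did not pass, and turned to -0.02 after median centring. The median of the list was 0.12, and 50% of its tested genes were called, beside 73.1% of all tested genes. OCA1, left out for outlier spots, had 0.20 with them kept. Of 8 Nudix hydrolases and enzymes of diadenosine polyphosphates, 4 were higher and 2 lower (median 0.10). That is 75% called, beside the same 73.1%. The lower count was 1 with the series table and with the first spot of each probe alone. HNT2, a diadenosine polyphosphate hydrolase, was higher by 0.24 ± 0.04 and the pyrophosphatase NPY1 by 0.20 ± 0.04, which was 0.46 after median centring and 0.13 on array 1 alone. PCD1 was lower (-0.14 ± 0.04).

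Arg82 forms part of the ArgR-Mcm1 complex, which represses arginine synthesis and activates arginine breakdown. Of 8 tested regulator and arginine genes 3 were higher and 4 lower (median -0.07), 87.5% called beside 73.1% of all tested genes. The regulator MCM1 was higher by 0.35 ± 0.04 (SE, n = 2), and by 0.61 after median centring, with 1 of its 2 spots saturated in red on array 2. ARG1, of arginine synthesis, and CAR1, the arginase of its breakdown, were both lower, with -0.33 ± 0.03 and -0.29 ± 0.04. ARG80, the regulator that Arg82 is known to stabilise, was left out for outlier spots and had 0.56 (limma adjusted p = 9.23e-09) with them kept.

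Products of the pathway act in mRNA export and chromatin. Inositol hexakisphosphate binds Gle1, which activates the helicase Dbp5 at the nuclear pore. Of 8 mRNA export genes 2 were higher and 4 lower (median -0.07), 75% called beside 73.1% of all tested genes. The higher count was 4 after median centring and 1 without saturated spots. NUP42, the nucleoporin that binds Gle1, was lower (-0.46 ± 0.03, SE, n = 2), as was the export factor MTR2 (-0.38 ± 0.04). YRA1, an export adaptor, was higher by 0.45 ± 0.04, and by 0.70 after median centring, with both of its red spots saturated on array 2. GLE1 had -0.11 ± 0.03, which passed (limma adjusted p = 0.0126) but did not after median centring (-0.04, adjusted p = 0.332). DBP5 had -0.03 ± 0.03, which did not pass (limma adjusted p = 0.426), and 0.09 after median centring, which did (adjusted p = 0.0396). Both are named after their values were seen. Of 5 tested remodellers and large kinases tied to inositol phosphates 2 were higher and 1 lower (median 0.05), 60% called beside the same 73.1%. The lower count was 3 with outlier spots kept and 0 with the first spot of each probe alone. The remodeller ATPase SNF2 was higher by 0.43 ± 0.04, the telomere kinase TEL1 by 0.29 ± 0.03, and ARP5 of the INO80 complex was lower (-0.22 ± 0.03). INO80 itself, left out for outlier spots, had -0.50 (limma adjusted p = 5.50e-08) with them kept.

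Among the proteins that read inositol pyrophosphates, the 9 tested SPX domain genes had a median of 0.01. As reported, 3 were higher and 2 lower, 55.6% called beside 73.1% of all tested genes. After median centring 5 were higher. VTC3 (1.06 ± 0.03, SE, n = 2), SYG1 (0.66 ± 0.04) and VTC4 (0.62 ± 0.03) led this list. VTC5, which encodes an SPX subunit of the same polyphosphate polymerase as VTC3 and VTC4, was lower (-0.23 ± 0.03). PHO87 was lower still (-0.41 ± 0.04), and VTC5 and PHO87 are named after their values were seen. PHO81, the SPX inhibitor of the Pho85 kinase, belongs to this list and to the next and had 0.01, a value near 0 that turned below it after median centring and was seen before the gene was named. Of the 5 genes of the Pho85 kinase and its transcription factors 2 were higher and 1 lower (median 0.01), 60% called beside the same 73.1%. The cyclin gene PHO80 was higher by 0.36 ± 0.03 and the kinase gene PHO85 lower (-0.37 ± 0.04), while PHO4 was higher by 0.60 ± 0.04. The ratios of KCS1 and VIP1, whose products act on this module, were -0.08 and -0.14.

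**Figure D5:**
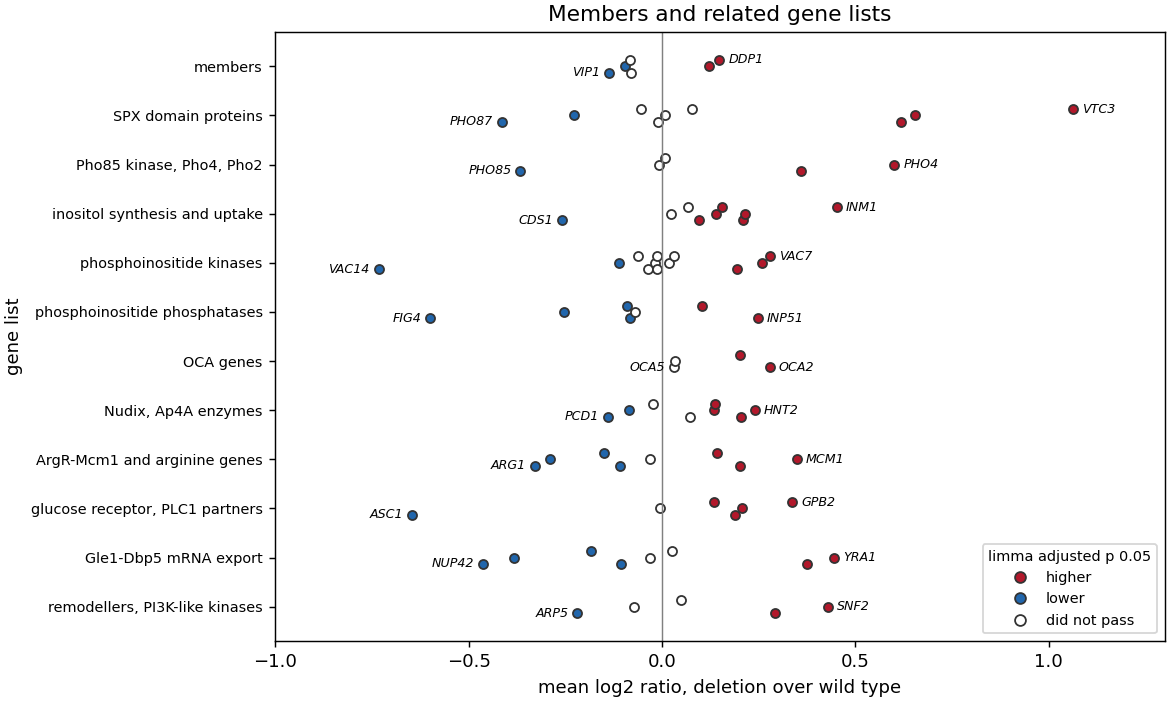
Mean log2 ratio of deletion over wild type (x axis) for the 6 tested members and the tested genes of 11 related lists (y axis), filled red where higher and blue where lower at limma's adjusted p of 0.05. The members lie between -0.14 and 0.15, while the far more numerous related genes reach from -0.73 (VAC14) to 1.06 (VTC3). The median absolute log2 ratio of the related genes was 0.15, beside 0.17 for all tested genes.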

How the data were processed

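The deposited scanner files hold spot intensity values from Agilent Feature Extraction 9.5.3.1, per the file headers (9.3.2.1, per the submitters' processing notes). They also hold a deposited log10 ratio of red over green after LOWESS, the scanner software's p-value for it, and 0 or 1 quality flags. A deposited series table gives the authors' log2 values, which correlated with the scanner ratios at 0.994 and 0.990 in the same direction. The medians of its columns were -0.0049 and -1.63e-04. Its averaging and normalisation are not given in the sources used here.

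Mean signals were background-corrected (normexp, offset 50), normalised by loess within arrays with control spots at weight 0, and averaged over spots not marked as outliers (limma 3.58.1, R 4.3.3). Genes entered the test if each array had a spot, not marked as an outlier, that was well above background in at least 1 channel. That held for 5641 of 6256 genes, and 6146 were tested with outlier spots kept. Log2 ratios were tested against 0 with limma (prior df 13.2, prior SD 0.0505) and Benjamini-Hochberg adjustment over all tested genes. The SE and 95% intervals come from that fit, and only 2 arrays limit the precision.

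Names came from RefSeq's R64 table, which held 5756 of the systematic names. The files name no genome build. RefSeq coordinates were used to order the genes along each chromosome, and so to find those beside the members. The members and the 11 lists were chosen with earlier results of these data known. By rule the text names all members, PHO92, URA3, LEU2, MET17, the 3 genes of each list that were furthest from 0 with the same sign on both arrays, and the 3 nearest neighbours of the member with the largest absolute log2 ratio, taken within 0.5 of its log2 intensity. Other genes were named after their values were seen, among them those left out for outlier spots and the genes beside the members.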

Additional observations from a re-analysis of the deposited data

How the results depend on the processing

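VIP1, DDP1 and SIW14 kept their direction and their call under all 11 alternatives with a test. Their log2 ratios ran from -0.16 to -0.13, from 0.14 to 0.18 and from 0.12 to 0.23. Keeping outlier spots, leaving out saturated spots and changing the filter on dim probes left these values as reported, so only the p-values could change. The first spot alone also left VIP1 and SIW14 unchanged. ARG82 passed under 9 of 11 and lost its call with the scanner software's ratios (-0.10, adjusted p = 0.0628) and the series table (-0.10, adjusted p = 0.0761). IPK1 gained a call after median centring (-0.12) and without saturated spots (-0.0825). KCS1 gained one without background correction (-0.0802), without saturated spots (-0.0807) and with both channels required above background (-0.0807), and turned to 0.0179 after median centring. OCA6 turned to -0.0245 with the same setting. The cause of these changes was not tested; without saturated spots the values are the same and fewer genes were tested. The count of lower members was 2 as reported, 1 with the scanner software's ratios, 1 with the series table and 4 without saturated spots. It was also above 2 without background correction, after median centring and with both channels required above background, through the calls of KCS1 and IPK1 given above. Lower and higher members both numbered 0 against a 1.5-fold change and 0 by the scanner software's p-values. The median over the members was -0.0377 without array 1 and -0.0892 without array 2. PHO92 lost its call with the scanner software's ratios (-0.31, adjusted p = 0.0879) and the series table (-0.16, adjusted p = 0.0813). Over the 46 other genes with a test that were run, 490 of 498 alternative results kept direction and call. The other 8 were those of PHO92 and OCA6 above, GLE1 after median centring (-0.0377) and with its first spot alone (-0.0888), DBP5 at the same settings (0.0925 and 0.0210) and PHO81 after median centring (-0.0012). Leaving out an array leaves a value with no test, so no counts were made for it. Both strains share each array, so the test on ratios within arrays is already the paired one. Signal over background did not limit the members, whose lowest mean signal was 1145 over a background of at most 43.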
